A study of Mus musculus with 6 samples.

Results

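The Notch pathway and proneural genes followed here were the receptor *Notch1*, the ligands *Dll1*, *Dll3* and *Dll4*, the Hes family genes *Hes1*, *Hes5* and *Hes6*, and the basic helix-loop-helix (bHLH) factors *Neurog2* and *Olig2*. They were chosen by symbol from the FPKM table of mouse retina at postnatal day 7, which holds 21744 genes, and all 9 were found. FPKM is a fragment count scaled to gene length and library depth. The series compared 3 control mice with 3 *Lhx4* null mice, with the retinas of each mouse as 1 library, and *Lhx4* is a LIM-homeodomain transcription factor that bipolar cells and cones of the retina use. In the null mice a tdTomato knock-in allele of *Lhx4* stood over a loxP allele, and *Six3*-Cre, which is active in the developing retina, removed the floxed copy. All mice were on a C57BL/6J; 129S6 mixed background. Which of the study's control genotypes gave the control libraries is not given in the sources used here. The pigment epithelium was removed from the eyecups at dissection.

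The targeted gene did not follow its label. Values per library are given in order of replicate number throughout. *Lhx4* was listed at 20.9, 23.8 and 19.1 FPKM in the controls and at 31.2, 30.3 and 29.0 FPKM in the null libraries (log2 fold change 0.51 ± 0.091 SE, adjusted p = 0.098, limma). The gene-level value does not show which exons were read, and the second group is therefore called the libraries labelled *Lhx4* null, or null libraries for short. Some markers of bipolar cells did separate by label. *Grm6*, the glutamate receptor of ON bipolar cells, had a log2 fold change of -1.49 (limma, adjusted p = 0.0091). It was -2.17 for *Pcp2*, -1.73 for *Scgn* and -1.15 for *Trpm1* (limma, adjusted p = 0.088 for *Trpm1*). All 3 null libraries were below all 3 controls for each of these genes. The study reports these same genes as reduced in its null retinas, so they are no independent check of the labels. Of 10 bipolar genes listed, groups did not overlap for 6, all lower in the null libraries, against 14.2% of all genes tested. The list also had 2 genes that were higher, 1 of them at an unadjusted p under 0.05 (limma). Depth relative to the deepest library, control replicate 3, was 95.7% and 76.9% in the other control libraries and between 46.7% and 65.9% in those labelled *Lhx4* null. Replicates correlated across genes with r between 0.982 and 0.992. Differences below are on log2(FPKM + 0.1), labelled *Lhx4* null minus control, from a limma fit over the 15200 genes whose mean reached 0.1 FPKM. Adjusted p-values are Benjamini-Hochberg values over all of these genes, and 34 genes (0.224%) were under 0.05.

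In the Notch pathway a Delta or Jagged ligand on one cell binds a Notch receptor on its neighbour, the receptor is cleaved within the membrane by gamma-secretase, and its intracellular part joins the DNA-binding protein RBPJ to switch on target genes. Hes1 and Hes5 are such targets and repress proneural bHLH genes, which keeps retinal progenitors undifferentiated and favours Müller glia, whereas Hes6 counters Hes1. Proneural factors such as Neurog2 switch on Delta genes in cells that leave the cycle to become neurons. In mouse retina the last progenitors make rods, bipolar cells and Müller glia in the first postnatal days, with the centre finishing before the periphery.

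2 promoters are shown with matches of 2 DNA words in capitals. In *Hes5* the word is the RBPJ core TGGGAA, written TTCCCA where it lies on the other strand. In *Dll3* it is the E-box CAGCTG, which bHLH proteins can bind and which reads the same on both strands. Both promoters are the 250 bases before the RefSeq start on GRCm38.p6, written 5′ to 3′ on the gene's strand, chr4:154960673-154960922 (+) for *Hes5* and chr7:28301786-28302035 (−) for *Dll3*.
Hes5: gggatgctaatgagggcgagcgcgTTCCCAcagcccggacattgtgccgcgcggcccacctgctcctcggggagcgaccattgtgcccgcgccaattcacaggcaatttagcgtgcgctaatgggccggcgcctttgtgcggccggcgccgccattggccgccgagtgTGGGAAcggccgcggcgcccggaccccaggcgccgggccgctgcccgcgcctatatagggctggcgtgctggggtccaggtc
Dll3: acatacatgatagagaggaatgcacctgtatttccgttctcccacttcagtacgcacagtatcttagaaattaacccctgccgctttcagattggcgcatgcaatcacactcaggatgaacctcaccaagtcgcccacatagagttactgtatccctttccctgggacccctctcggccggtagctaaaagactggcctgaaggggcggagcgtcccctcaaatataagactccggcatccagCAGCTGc

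RefSeq had a promoter entry for 8 of the 9 genes, 10 entries in all, and *Hes1* had none. Among them the RBPJ core was found in *Hes5* alone, with 2 matches that begin 226 and 82 bases before the start. Of 32851 promoters of the same length, 21.6% held this word on either strand. The E-box was found in *Dll1*, *Dll3* and *Hes6*, against 13% of all promoters, and in *Dll3* it begins 7 bases before the start. A gene is counted here if any of its entries holds the word, whereas the shares are of single promoters. *Dll1* also had an entry without the E-box. The N-box CACNAG, a site that Hes proteins can bind, was found in *Notch1*, *Dll4* and *Hes6* and in 36.7% of all promoters. *Hes6* also had an entry without the N-box. No matches of these words overlapped. These are matches of letters in a short window, not shown sites of binding.

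No gene of the 9 reached an adjusted p under 0.05. At an unadjusted p under 0.05, *Notch1* alone was higher in the libraries labelled *Lhx4* null, where 8.15% of all genes had such a p (4.6% higher and 3.55% lower). Of the 9 genes, 8 had a log2 fold change above 0, with a median of 0.36, whereas 53.3% of all genes tested were above 0 and their median was 0.011. For 6 of the 9 the range within the control libraries was larger than the log2 fold change, which held for 75.6% of all genes. The 8 genes other than *Notch1* had unadjusted p-values from 0.065 to 0.52 and adjusted p-values from 0.64 to 0.89 (limma). With bulk retina, more cells that express a gene and more RNA per cell cannot be told apart.

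*Notch1*, the receptor (chromosome 2: 26457903 to 26516663, minus strand, GENCODE vM21 on GRCm38), was at 17.3, 14.7 and 15.8 FPKM in the controls and at 17.8, 29.3 and 19.2 FPKM in the null libraries. It was the only one of the 9 whose groups did not overlap, but null replicates 1 and 3 lay just above the controls and null replicate 2 far above them. Groups did not overlap for 14.2% of all genes. The means were 15.9 ± 1.31 and 22.1 ± 6.25 FPKM (SD, n = 3 each), and the log2 fold change was 0.44 ± 0.17 SE (limma, unadjusted p = 0.034, adjusted p = 0.59). Without null replicate 2 it was 0.22 (unadjusted p = 0.054 in limma). Of its exon bases, 9.8% overlap annotated genes of the other strand, and whether the reads were assigned by strand is not given in the sources used here.

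The Delta ligand *Dll1*, the main trans-acting ligand of progenitors entering neurogenesis (chromosome 17: 15367354 to 15376872, minus strand), was at 10.1, 8.03 and 10.1 FPKM in the controls and at 8.77, 18.7 and 15.1 FPKM in the null libraries. Null replicates 2 and 3 were above every control, and null replicate 1 lay among the controls. The means were 9.43 ± 1.21 and 14.2 ± 5.04 FPKM, and the log2 fold change was 0.53 ± 0.25 SE (limma, unadjusted p = 0.065, adjusted p = 0.64). Without null replicate 1 it was 0.84 (limma, unadjusted p = 4.658e-04, adjusted p = 0.091), the lowest adjusted p of any of the 9 genes over 14 alternative settings, whereas it was 0.30 without null replicate 2 (unadjusted p = 0.24) and 0.42 without control replicate 2 (unadjusted p = 0.18). The gene *A930024N18Rik* on the other strand overlaps 20.5% of the exon bases of *Dll1*.

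*Dll3* encodes a divergent ligand that acts inside the cell that makes it and dampens Notch signalling (chromosome 7: 28293553 to 28302238, minus strand). It was at 4.20, 1.63 and 3.53 FPKM in the controls and at 3.06, 7.72 and 4.41 FPKM in the null libraries. The library extremes were control replicate 2 and null replicate 2, and the other 4 libraries overlapped. *Dll3* had the widest spread of the 9 genes, 4.72-fold from the lowest to the highest library and 2.57-fold among the controls. Its log2 fold change was 0.68, with a 95% interval from -0.23 to 1.59 (limma, unadjusted p = 0.12), and it was 0.28 without control replicate 2 and 0.33 without null replicate 2. *Dll4*, a ligand of newly formed neurons and also of the endothelial tip cells of growing vessels (chromosome 2: 119325784 to 119335962, plus strand), was at 2.21, 1.69 and 1.81 FPKM in the controls and at 2.04, 3.67 and 2.43 FPKM in the null libraries. Null replicates 2 and 3 were above the controls and null replicate 1 was within them. *Dll4* had a log2 fold change of 0.46 ± 0.22 SE (limma, unadjusted p = 0.068), which was 0.22 without null replicate 2.

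Among the Hes genes, *Hes1* (chromosome 16: 30064384 to 30067796, plus strand) was at 7.13, 7.20 and 9.41 FPKM in the controls and at 7.78, 11.5 and 9.53 FPKM in the null libraries. Control replicate 3 and null replicate 3 were nearly level. *Hes1* had a log2 fold change of 0.27, with an interval from -0.10 to 0.64, and of 0.13 without null replicate 2. *Hes5*, which carries both RBPJ words in the printed promoter (chromosome 4: 154960923 to 154962371, plus strand), was at 21.5, 15.2 and 23.4 FPKM in the controls and at 15.5, 32.5 and 24.5 FPKM in the null libraries. Each group had 1 library near the same low level, control replicate 2 and null replicate 1. The log2 fold change was 0.23, with an interval from -0.36 to 0.83, and without null replicate 2 it was -0.012. Of the exon bases of *Hes5*, 31.8% overlap *Gm20421* on the other strand. *Hes6* (chromosome 1: 91411483 to 91414038, minus strand) was the most abundant of the 9, at 69.7, 49.6 and 72.3 FPKM in the controls and at 59.2, 100.2 and 88.5 FPKM in the null libraries. Null replicates 2 and 3 were above every control. For *Hes6* the log2 fold change was 0.36, with an interval from -0.12 to 0.83 (limma, unadjusted p = 0.12), and it was 0.18 without control replicate 2 and 0.20 without null replicate 2.

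Both bHLH factors differed by less than their spread. *Neurog2*, a proneural factor (chromosome 3: 127633135 to 127635631, plus strand), was at 6.50, 5.25 and 7.07 FPKM in the controls and at 6.10, 6.93 and 4.41 FPKM in the null libraries. Its highest library was a control and its lowest was null replicate 3, and it was the only gene of the 9 with a lower mean in the null libraries. Its log2 fold change was -0.12, with an interval from -0.53 to 0.29, and it was 0.061 without null replicate 3 and -0.26 without null replicate 2. *Olig2*, which marks retinal progenitors near their last division as well as the oligodendrocyte lineage (chromosome 16: 91225457 to 91228677, plus strand), was the lowest of the 9, at 1.34, 0.768 and 1.31 FPKM in the controls and at 1.14, 1.87 and 1.40 FPKM in the null libraries. The groups overlapped, with control replicate 2 apart from the other controls. Its log2 fold change was 0.35, with an interval from -0.23 to 0.93, and it was 0.12 without control replicate 2 and 0.18 without null replicate 2. Of 9 oligodendrocyte markers, *Sox10*, *Gpr17* and *Opalin* were under the filter of 0.1 FPKM. The sum of the list was 33.9 to 36.9 FPKM in controls and 36.3 to 44.9 FPKM in the null libraries. The 6 tested were split, 4 higher and 2 lower. *Mbp* was higher (log2 fold change 0.51, limma, unadjusted p = 0.0042) and *Mog* lower (-0.86, limma, unadjusted p = 0.0034), both without overlap between groups.

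**Figure D1:**
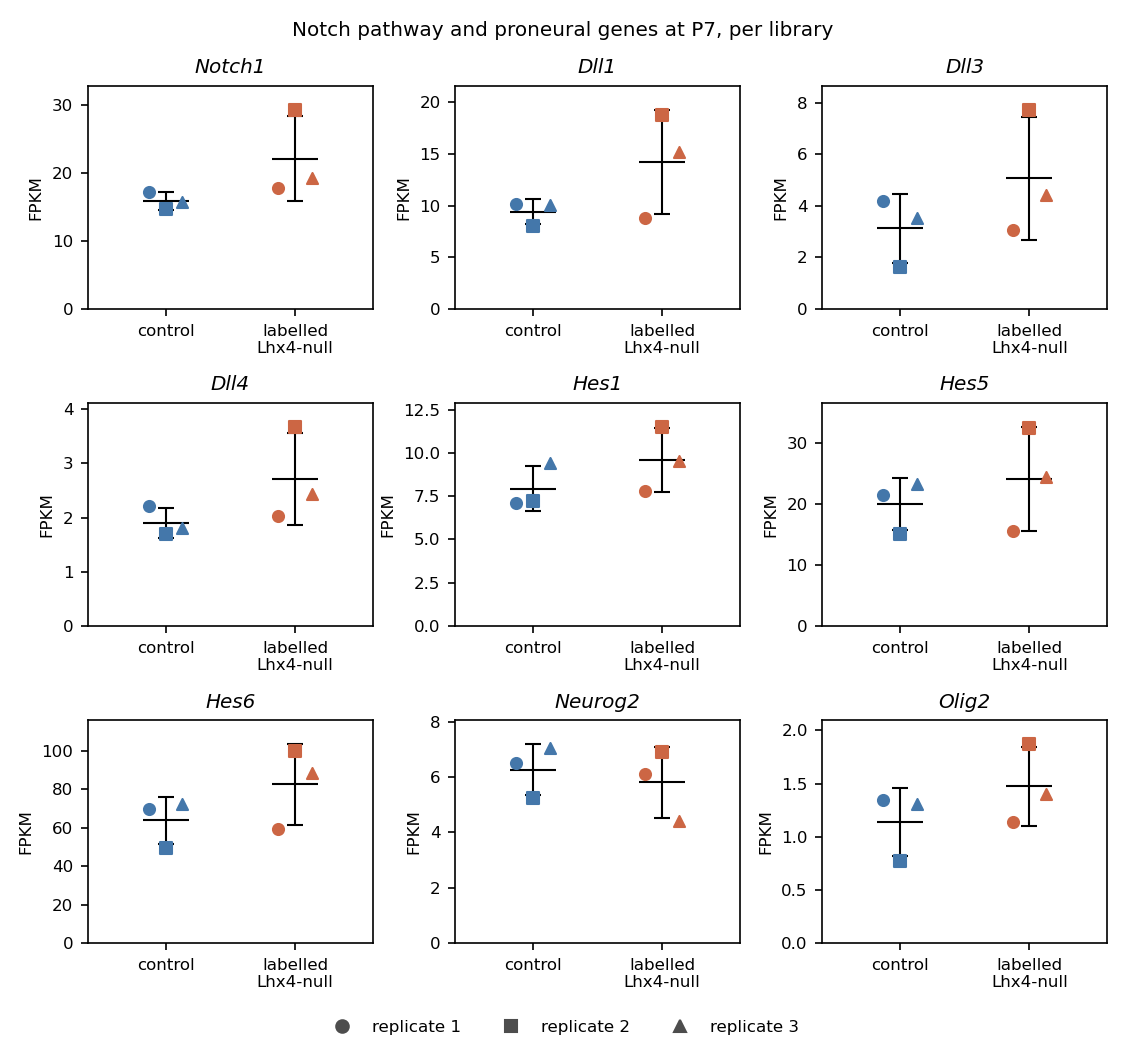
FPKM of the 9 genes in each library (points, shape by replicate number), with the mean (long bar) and SD (error bars) of each group of 3, on linear axes from 0. *Notch1* is the only gene whose groups do not overlap, and null replicate 2 is the highest null library for all 9.

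**Figure D2:**
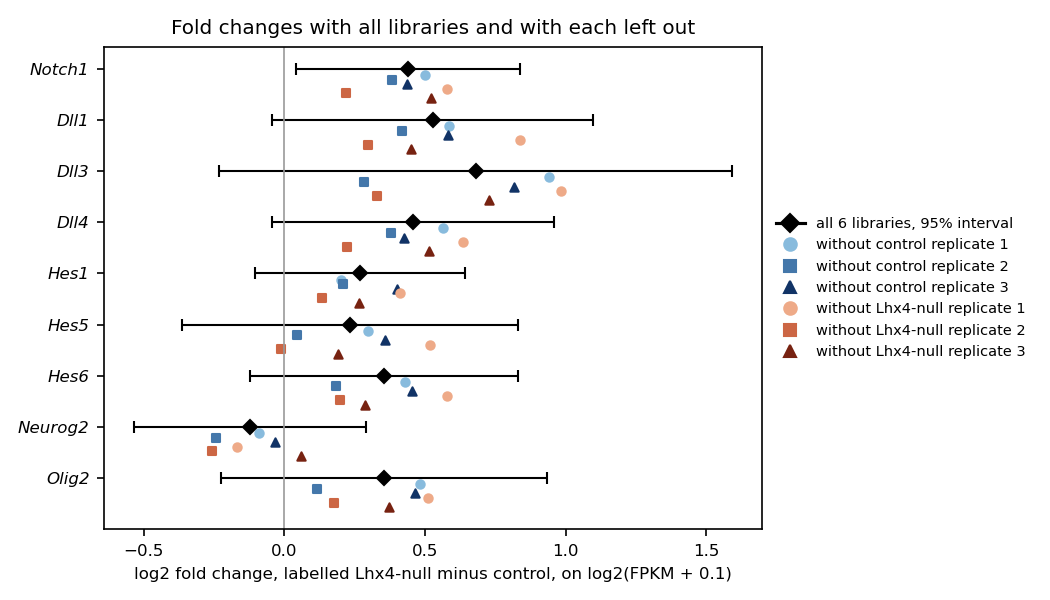
Log2 fold change of each gene on log2(FPKM + 0.1), labelled *Lhx4* null minus control, with all 6 libraries and its 95% interval from limma (black), and with each library left out in turn (coloured). *Hes5* is at -0.012 without null replicate 2, and *Neurog2* at 0.061 without null replicate 3.

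Because FPKM is scaled to length, levels can be set side by side. By the mean over 6 libraries the order was *Hes6* (73.2 FPKM), *Hes5* (22.1), *Notch1* (19.0), *Dll1* (11.8), *Hes1* (8.76), *Neurog2* (6.04), *Dll3* (4.09), *Dll4* (2.31) and *Olig2* (1.31). The ranges over libraries were apart only between *Hes6* and *Hes5* and between *Hes1* and *Neurog2*, and all other neighbours overlapped. *Neurog2* was above *Dll3* in 4 of 6 libraries, and *Hes5* above *Notch1* and *Dll3* above *Dll4* in 5 of 6. The remaining neighbours kept their order in all 6.

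**Figure D3:**
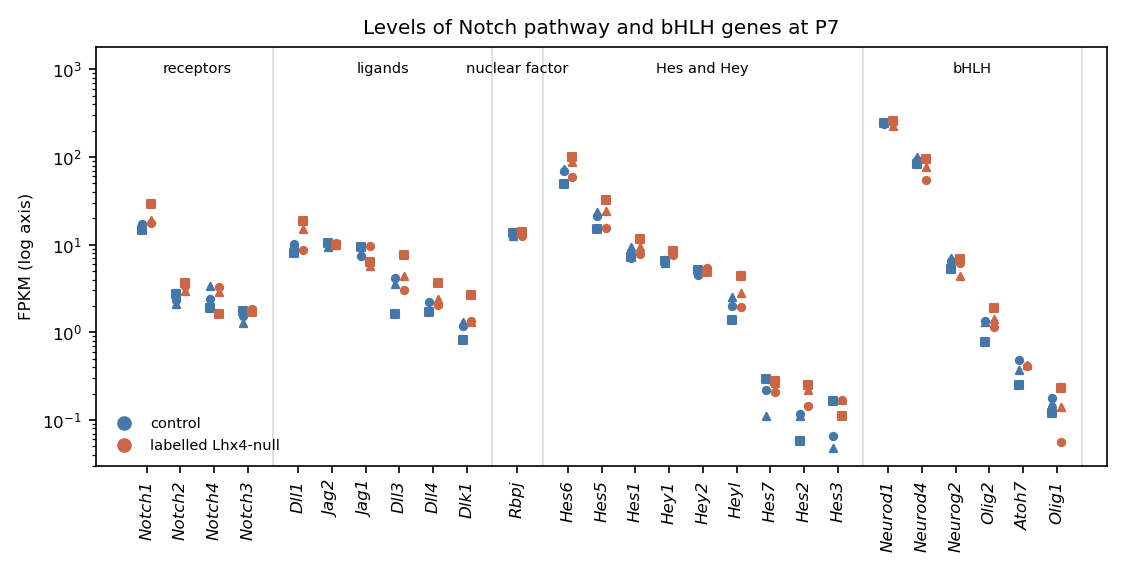
FPKM on a log axis for Notch receptors, ligands, RBPJ, Hes and Hey genes and bHLH factors, 1 point per library (blue control, red labelled *Lhx4* null, shape by replicate number); values of 0 are not drawn. *Hes6* leads its family and *Notch1* is the highest of the receptors, and *Neurod1* and *Neurod4* are the highest bHLH factors drawn.

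Most of the 9 genes shared an order of libraries. *Notch1*, *Dll1*, *Dll3*, *Dll4*, *Hes5*, *Hes6* and *Olig2*, 7 of the 9, were lowest in control replicate 2 and highest in null replicate 2, a pair of extremes found in 7.35% of all genes tested. Control replicate 2 was the lowest control for 8 of 9 (41.7% of all genes), null replicate 1 the lowest null library for 8 of 9 (35.5%) and null replicate 2 the highest null library for 9 of 9 (35.9%). After each gene was centred on its own mean, the median over the 9 was -0.012, -0.49 and 0.020 in the controls and -0.15, 0.61 and 0.14 in the null libraries, on the log2 scale. The libraries of 1 group thus lay farther apart than the groups did. The genes differ from each other as well: by root mean square distance of centred log2 profiles over the 6 libraries, *Notch1* and *Dll4* were the closest pair (0.063) and *Dll3* and *Neurog2* the farthest (0.61).

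Cell cycle genes followed the same order. The median of 24 centred cell cycle genes was -0.096, -0.54 and -0.040 in the controls and -0.25, 0.69 and 0.31 in the null libraries, and 17 of the 24 were lowest in control replicate 2 and highest in null replicate 2. *Mki67*, a protein of cycling cells, was at 2.80, 1.20 and 2.66 FPKM in the controls and at 1.76, 4.81 and 4.16 FPKM in the null libraries. Among 203 genes of the Notch, bHLH, progenitor, cell cycle and cell type lists, 24 of which are cell cycle genes, the one whose centred profile lay closest was a cell cycle gene for 7 of the 9: *Plk1* for *Notch1* (0.088) and *Dll4* (0.078), *Cenpa* for *Dll1* (0.087) and *Hes5* (0.12), *Mcm2* for *Hes1* (0.098), *Mcm5* for *Hes6* (0.063) and *E2f1* for *Olig2* (0.10). For comparison, each gene's own spread around its mean was between 0.24 and 0.65 on the same scale. *Dll3* was closest to the neurogenic progenitor gene *Mfap4* (0.17), and *Neurog2* to *Rax* (0.17), an eye field and progenitor factor. These likenesses are over 6 libraries that all the genes share.

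Genes of rods ran the other way. The median of 8 centred rod genes was 0.020, 0.34 and 0.074 in the controls and 0.19, -0.47 and -0.25 in the null libraries. The libraries high for rod genes were low for most of the 9. Of the 8 rod genes, 7 were lower and 1 higher in the null libraries, with a median log2 fold change of -0.35. None had an unadjusted p under 0.05 between the groups (limma). Their sums overlapped, at 3118 to 3638 FPKM in controls and 2567 to 3395 FPKM in the null libraries. The median of bipolar genes was also highest in control replicate 2 (0.49) and lowest in null replicate 2 (-0.60). Unlike that of the 9, it did not overlap between groups. Of the 10 genes, 6 did not overlap, all lower in the null libraries, and 4 had an adjusted p under 0.05 (limma). The other way went 2 genes, 1 of them at an unadjusted p under 0.05 (limma). Whether cell makeup or stage of maturation plays a part in the order of the libraries was not tested.

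**Figure D4:**
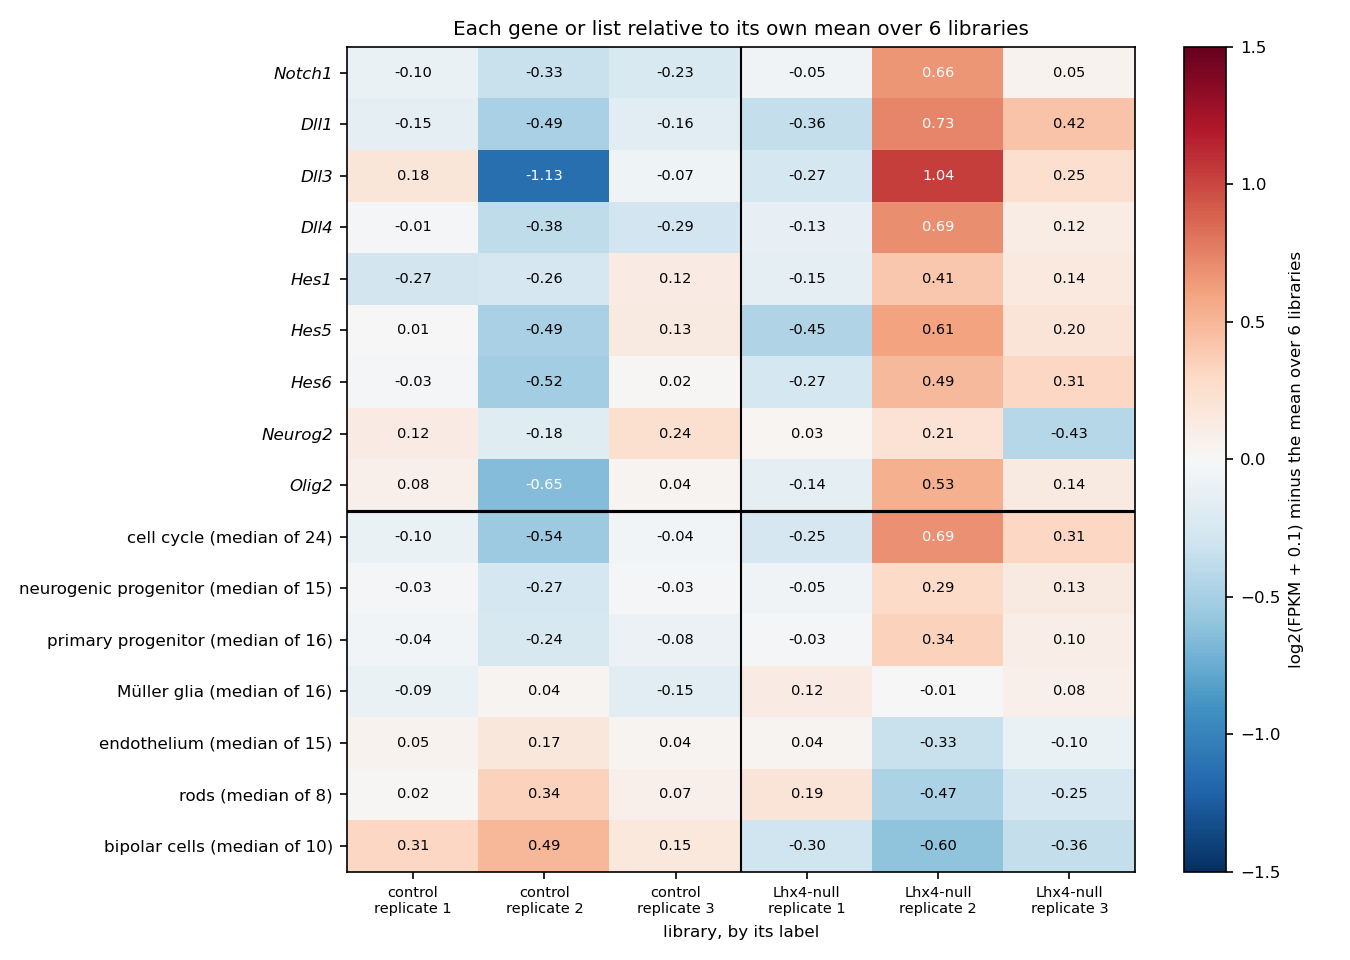
Log2(FPKM + 0.1) minus the mean over 6 libraries, for each of the 9 genes (upper rows) and as the median of marker lists (lower rows), by library, with the value in each cell. Control replicate 2 is low and null replicate 2 high for most of the 9 and for cell cycle genes, and rod genes run the other way.

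The counts rested on single libraries. Without null replicate 1, 7 of the 9 genes had an unadjusted p under 0.05 and all 7 were higher, against 7.01% of all genes, 8 of 9 did not overlap between groups, against 32.2%, and 0 had an adjusted p under 0.05 (limma). The log2 fold changes were then between 0.41 for *Hes1* and 0.98 for *Dll3* among these 7. Without null replicate 2 the same 7 genes lay between -0.012 for *Hes5* and 0.33 for *Dll3*, and the median of the 9 was 0.20. Without null replicate 2, or without control replicate 2, 0 of the 9 had an unadjusted p under 0.05 in limma. Null replicate 1 was the shallowest library, at 46.7% of the deepest, and the part of depth was not tested.

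The rest of the pathway was read from lists of receptors and ligands, of processing factors and modifiers, and of the nuclear complex and targets. Of 53 further Notch genes, 52 were tested: 39 were higher and 13 lower, with a median log2 fold change of 0.12, 6 higher and 1 lower at an unadjusted p under 0.05, and 0 at an adjusted p under 0.05 (limma). In order of libraries, 11 of the 52 were lowest in control replicate 2 and highest in null replicate 2. The receptor *Notch2* was at 2.32, 2.72 and 2.12 FPKM in the controls and at 3.40, 3.70 and 2.94 FPKM in the null libraries (log2 fold change 0.47 ± 0.14 SE; limma, unadjusted p = 0.010, adjusted p = 0.45). All 3 null libraries were above all 3 controls. *Notch3* and *Notch4* had log2 fold changes of 0.21 and -0.0033, and the ligand *Jag1* of -0.23, all with overlapping groups. *Dlk2*, a non-canonical ligand, had a log2 fold change of -0.29 (limma, unadjusted p = 0.027), and its p was over 0.05 without control replicate 2, null replicate 2 or null replicate 3. With each library left out in turn, *Notch2* kept an unadjusted p under 0.05 in 6 of 6 fits.

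Among processing factors, 4 of 26 were higher at an unadjusted p under 0.05 and 0 were lower, against 4.6% and 3.55% of all genes. They were *Ncstn*, a subunit of gamma-secretase (log2 fold change 0.35), *Neurl1a*, a ligase that promotes uptake of ligands (0.26), and the Deltex ligases *Dtx1* (0.29) and *Dtx4* (0.19). With each library left out in turn, *Ncstn* kept an unadjusted p under 0.05 in 6 of 6 fits, *Neurl1a* and *Dtx1* in 2 and *Dtx4* in 1. Of the nuclear complex and targets, 17 of the 18 tested were higher, with a median of 0.21, and only *Hey1* had an unadjusted p under 0.05. *Hey1*, a Hes-related target, was at 6.67, 6.46 and 6.14 FPKM in the controls and at 7.60, 8.41 and 8.0 FPKM in the null libraries (log2 fold change 0.31 ± 0.088 SE; limma, unadjusted p = 0.0071, adjusted p = 0.40). Its groups were apart by more than the range within either, and an unadjusted p under 0.05 was kept in 6 of 6 fits with a library left out. *Hey2*, a relative, had a log2 fold change of 0.083 with overlapping groups. *Rbpj*, which gives the DNA-binding partner, was at 12.5, 13.6 and 12.6 FPKM in the controls and at 12.5, 14.0 and 14.5 FPKM in the null libraries, with a log2 fold change of 0.083.

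The list of other bHLH factors was balanced. It also holds E proteins, and Id proteins listed as inhibitors, so its balance is not that of proneural factors alone. Of 20 listed, 15 were tested, with 7 higher, 8 lower and a median log2 fold change of -0.00096. Only *Bhlhe22*, a factor of amacrine and some bipolar cells, had an unadjusted p under 0.05, with a log2 fold change of -0.23 (limma, unadjusted p = 0.037, adjusted p = 0.60). That call held in 1 of the 6 fits that leave out a library, the one without null replicate 1, and without the mean-variance trend it was lost (unadjusted p = 0.058) while *Neurod2*, a neurogenic factor with a log2 fold change of 0.27, had an unadjusted p of 0.047. *Atoh1* and *Olig3* were listed at 0 in every library, and *Neurog1*, *Neurog3* and *Ptf1a* were under the filter.

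Most progenitor genes were higher as well. Of 31 neurogenic and primary progenitor genes tested, 27 were higher and the median log2 fold change was 0.27. None had an adjusted p under 0.05 (limma). At an unadjusted p under 0.05, 13 were higher and 1 lower, against 4.6% and 3.55% of all genes. In the neurogenic list these were *Rgs16* (log2 fold change 0.51), *Sox11* (0.42), *Mfap4* (0.84), *Insm1* (0.27) and *Gadd45g* (0.65). The primary progenitor list was led by *Six6* (0.41), *Nfix* (0.29), *Sfrp2* (0.67) and *Pax6* (0.20), of which *Pax6* also marks amacrine cells. Of 24 cell cycle genes 22 were higher, with a median of 0.41, and *E2f8* (0.93), *Plk1* (0.54), *Mcm3* (0.47) and *Cdc20* (0.87) had an unadjusted p under 0.05. Of these progenitor and cell cycle genes, *Six6*, *Nfix*, *Sfrp2* and *E2f8* kept it in 6 of 6 fits with a library left out. *Rgs16*, *Sox11* and *Pax6* kept it in 4 of 6, *Mfap4*, *Plk1* and *Cdc20* in 3, and *Insm1*, *Gadd45g* and *Mcm3* in 2. Leaving out null replicate 2 ended the call for all of these 9 but *Pax6*, which lost it without control replicate 1 or 3. The level of *E2f8* was low, with means of 0.33 FPKM in controls and 0.72 FPKM in the null libraries, under the alternative filter of 1 FPKM. Its log2 fold change was 0.37 with a pseudocount of 1 FPKM and 1.11 with 0.01 FPKM.

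Other cells that use the pathway were followed by their markers, and their part in these differences was not tested. Müller glia express *Notch1*, *Hes1* and *Hes5*, and the summed FPKM of 16 Müller markers was 1150 to 1220 in controls and 1289 to 1344 in the libraries labelled *Lhx4* null. The sums did not overlap between groups, and 12 of the 16 were higher, of which 3 had an unadjusted p under 0.05 (limma). The order of libraries differed from that of the 9, since null replicate 2 had the lowest Müller sum of its group. Endothelium expresses *Dll4* and *Notch1*, and the sum of its markers was 88.5 to 105.2 FPKM in controls and 91.5 to 101.1 FPKM in the libraries labelled *Lhx4* null, with 13 of 15 tested markers lower, 3 of them (*Pecam1*, *Emcn* and *Esam*) at an unadjusted p under 0.05 (limma). *Kdr*, a receptor for vascular growth factor, made up a large share of that sum and was higher, at 35.9, 44.4 and 35.5 FPKM in the controls and at 50.3, 51.4 and 42.8 FPKM in the null libraries. Without *Kdr*, left out after its values were seen, the sums were 53.0 to 60.8 FPKM in controls and 41.8 to 50.9 FPKM in the null libraries and did not overlap. Pericyte markers, 9 in number, summed to 20.2 to 26.2 FPKM in controls and 16.2 to 24.3 FPKM in the other group. Astrocyte markers were split 3 higher and 3 lower, and all 8 amacrine markers were higher, 4 of them at an unadjusted p under 0.05 (limma). Over all genes tested, 4.6% were higher and 3.55% lower at such a p. Pigment cell markers summed to 10.7 to 19.8 FPKM in controls and 21.2 to 36.8 FPKM in the libraries labelled *Lhx4* null, again without overlap.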

How the data were processed

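Retinal RNA of 6 mice was sequenced in paired ends. The authors mapped the reads with TopHat2, with GRCm38 named in the submitters' processing notes, and deposited Cufflinks FPKM per gene. Program versions, annotation and use of strand are not given in the sources used here. FPKM are not counts, so log2(FPKM + 0.1) of the 15200 genes whose mean reached 0.1 FPKM was fitted in limma 3.58.1 (R 4.3.3; lmFit, eBayes with trend), labelled *Lhx4* null minus control, with no block or covariate. P-values are two-sided and adjusted by Benjamini-Hochberg. The smallest p of an exact permutation test in this design is 0.1. Relative depth came from the steps of whole fragments among low values, since the table carries no totals, and the range of read depths that the study gives was not used. The fit was tested on simulated data. Promoter words were searched on both strands in Python 3.11.15.

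Groups came from the labels. The genes named are the 9 members, *Lhx4*, a fixed set of pathway genes (*Rbpj*, *Notch2*, *Notch3*, *Notch4*, *Jag1*, *Hey1*, *Hey2*), up to 4 per list and direction with the smallest unadjusted p under 0.05, defining markers, and the closest profile of each member. Some genes that this rule names are not reported here. *Gadd45g*, *Mki67*, *Neurod1* and *Neurod4* were named after their values were seen. The members and lists were chosen with earlier results of these data known, and the lists are not independent support. Alternatives changed the pseudocount (1 or 0.01 FPKM), filter (none or 1 FPKM), scaling, trend and replicate block, or left out each library.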

Additional observations from a re-analysis of the deposited data

How the results depend on the processing

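Over 14 alternatives no member reached an adjusted p under 0.05 in limma, and 8 of 9 were higher in every alternative but 2 (7 of 9 without null replicate 2, 9 of 9 without null replicate 3). Direction reversed for *Hes5* without null replicate 2 (-0.012, against up to 0.52 without null replicate 1) and for *Neurog2* without null replicate 3 (0.061, against down to -0.26 without null replicate 2). Leaving out 1 library in turn gave 0 to 7 members with an unadjusted p under 0.05 and 1 to 8 without overlap, 3 to 13 other Notch genes, 0 to 3 bHLH genes, 1 to 17 cell cycle genes, 6 to 18 progenitor genes, and 15 to 31 genes of all tested with an adjusted p under 0.05. The lowest member count came without null replicate 2 or control replicate 2 and the highest without null replicate 1. Without the mean-variance trend there were 0 members and 8 progenitor genes. With no filter 20 genes of all tested had an adjusted p under 0.05. A pseudocount of 0.01 FPKM and a filter at 1 FPKM each gave 2 bHLH genes, since *Neurod2* crossed the threshold. Same-numbered control and null libraries deviated with correlations of -0.13, -0.00020 and 0.16, and differently numbered ones with -0.24 to 0.24. The deviations are from means of 3 libraries, which ties these correlations to each other. They cannot show whether the numbers pair mice. With a replicate block 15 genes of all tested had an adjusted p under 0.05, with 9 progenitor genes and 0 bHLH genes at an unadjusted p under 0.05. Other scalings moved no count by over 1.5 times. The cause of these shifts was not tested. Having 3 libraries per group limits the precision, and every library labelled *Lhx4* null was shallower than every control, the effect of which was not tested.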
